A study of Mus musculus with 8 samples.

Results

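The genes described here are 8 transcription regulators that T cells switch on when their antigen receptor is engaged: the nuclear receptors Nr4a1, Nr4a2 and Nr4a3, the zinc finger factors Egr1, Egr2 and Egr3, the EGR corepressor Nab2, and Irf4. They were chosen by name, were all measured in every library, and make up 8 of the 14455 genes that could be identified in the deposited data. They were read in Th1 cells, the helper T cells known for interferon gamma. T cells of C57BL/6 mice had been stimulated with antibodies to CD3 and CD28 in medium with 2 ng/ml IL-12 and 5 µg/ml anti-IL-4. In the knockdown experiment, cells transduced with a short hairpin RNA against Pcbp1 were set beside cells with a scrambled hairpin, and total RNA was sequenced after removal of ribosomal RNA. In the other experiment, cells given CPX (ciclopirox olamine, an iron chelator) were set beside cells given its solvent DMSO, and polyA RNA was sequenced. Each of the 4 groups had 2 libraries, all 8 from cells kept under the same Th1 conditions, and neither the CPX dose nor any treatment time is known here. Replicates carry numbers, but no label says whether they came from separate cultures or mice. The p-values therefore measure the spread between these libraries, whose source is not known. The main tests did not use the replicate numbers.

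The 3 NR4A proteins are nuclear receptors that need no known ligand and are controlled mainly by how much of them is made. In T cells, calcium signals from the antigen receptor induce them through MEF2 factors and through CREB family factors bound at cAMP response sites, and they are known for their part in tolerance, exhaustion and regulatory T cells. The EGR factors bind GC-rich DNA and are induced within minutes through the RAS and ERK kinases and the ternary complex of SRF with ELK factors. EGR2 and EGR3 are known to restrain activated T cells, and NAB2, itself an EGR target, binds EGR proteins and holds back their activity. IRF4 accumulates with the strength of receptor signalling and binds DNA mostly beside a partner such as BATF with a JUN protein. PCBP1 is an RNA-binding protein and also a chaperone that delivers iron inside the cell.

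The promoters of the NR4A genes are shown first because the 3 genes share a feature of sequence and yet differed in response. RefSeq promoter windows (GRCm38.p6, 250 bases before to 50 after the annotated start) were at hand for 6 of the 8 genes, all but Egr1 and Egr3. The bases before the start are given 5′ to 3′ on each gene's own strand, for Nr4a1 at chr15:101266596-101266845 (plus strand), for Nr4a2 at chr2:57124004-57124253 (minus strand) and for Nr4a3 at chr4:48045055-48045304 (plus strand). Capitals mark the cAMP response half-site, TGACG or its complement CGTCA.
Nr4a1: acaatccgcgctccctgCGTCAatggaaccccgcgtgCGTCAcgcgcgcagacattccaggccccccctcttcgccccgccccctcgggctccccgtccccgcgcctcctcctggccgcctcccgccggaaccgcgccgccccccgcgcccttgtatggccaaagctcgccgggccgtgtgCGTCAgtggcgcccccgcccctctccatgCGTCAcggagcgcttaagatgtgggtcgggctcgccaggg
Nr4a2: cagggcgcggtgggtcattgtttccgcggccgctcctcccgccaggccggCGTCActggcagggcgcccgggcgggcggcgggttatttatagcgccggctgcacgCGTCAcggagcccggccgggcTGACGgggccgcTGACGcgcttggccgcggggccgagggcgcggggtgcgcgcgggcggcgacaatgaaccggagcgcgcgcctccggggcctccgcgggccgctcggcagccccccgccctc
Nr4a3: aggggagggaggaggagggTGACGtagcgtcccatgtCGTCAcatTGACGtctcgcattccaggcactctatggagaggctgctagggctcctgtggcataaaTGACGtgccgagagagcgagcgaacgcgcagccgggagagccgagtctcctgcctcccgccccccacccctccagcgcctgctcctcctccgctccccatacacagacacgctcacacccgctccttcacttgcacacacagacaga
Each of the 3 windows held 4 half-sites, a number reached by 76 of 32851 promoters of the same length (0.231%), while 20.8% held at least 1. Their first bases lay at -233, -213, -69 and -40 in Nr4a1, at -200, -144, -123 and -111 in Nr4a2, and at -231, -213, -205 and -147 in Nr4a3, counted with the start as 0. The whole element TGACGTCA, found in 1.79% of all promoters, was in none of the 6 genes' windows. A match to the EGR site GCGNGGGCG, on either strand, was present once in Nr4a1 (-60) and once in Nr4a2 (-74), against 5.55% of all promoters.

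Egr2 has 5 annotated starts. At the third, the window held a CArG box, the site bound by SRF (1.63% of all promoters), 72 bases before the start, with half-sites at -111 and -55. The stretch from the box to the nearer half-site lies at chr10:67537794-67537823 on the plus strand, with both in capitals.
Egr2: agtCCATATATGGgcagcgaCGTCAcgggt
The windows of Nab2 (chromosome 10, start at 127666703, minus strand) and Irf4 (chromosome 13, start at 30749233, plus strand) held none of these motifs. The NR4A monomer site AAAGGTCA, on either strand, was in 1.51% of all promoters and in none of the 6 genes. These are matches of letters in short windows and say nothing about which factors were bound in these cells.

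**Figure D1:**
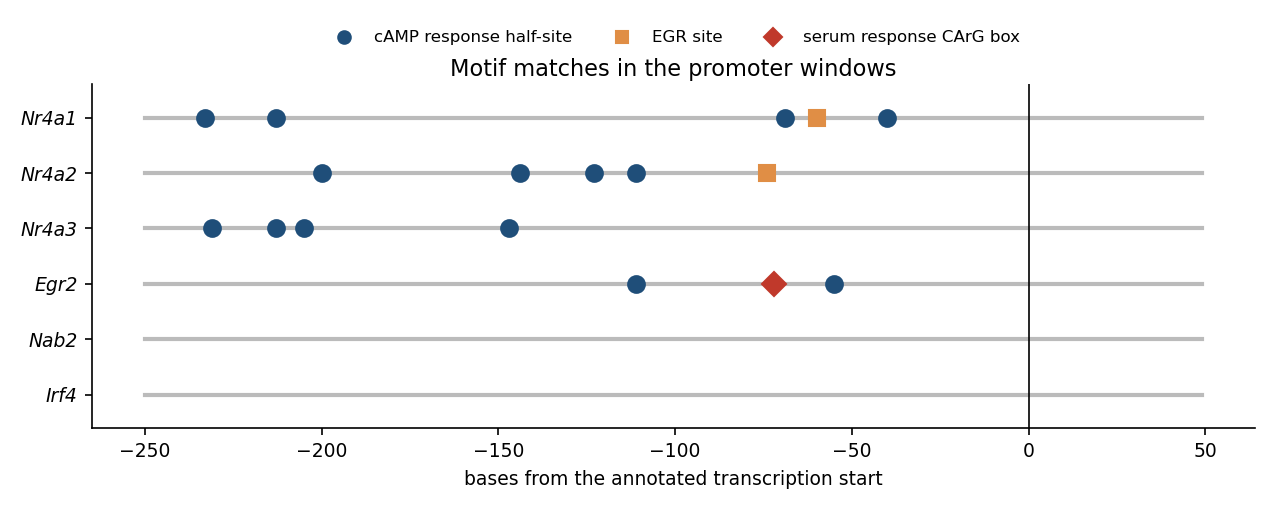
Motif matches in the RefSeq promoter windows of 6 genes, with the distance in bases from the annotated start on the x axis (0 is the start) and 1 line per gene; for Egr2 the third of its 5 starts is drawn. Circles are cAMP response half-sites, squares EGR sites and the diamond a CArG box. Nr4a1, Nr4a2 and Nr4a3 have 4 half-sites each, while Nab2 and Irf4 have no match.

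Levels are given in RPM, a gene's share of the library total times 1e+06, and per kilobase of exon (RPM per kb) where genes are compared with each other. Library totals were 14174293 to 15518303 reads in the knockdown experiment and 19193784 to 19662145 rescaled units in the CPX experiment. Because RNA was selected differently, levels are compared within an experiment only. Log expression of the 2 replicates correlated over genes at 0.993 (scrambled), 0.992 (Pcbp1 hairpin), 0.985 (DMSO) and 0.954 (CPX), and 1773 genes differed over 2-fold between the CPX replicates against 77 to 524 in the other groups. Pcbp1, the targeted gene, was at 44.0 and 51.7 RPM with the scrambled hairpin and at 15.1 and 16.1 RPM with the Pcbp1 hairpin, 3.31-fold lower (log2 fold change -1.73). Its RNA was also lower with CPX, at 238 and 199 RPM against 506 and 538 RPM with DMSO. That was a 2.40-fold decrease (log2 fold change -1.26), so Pcbp1 RNA fell in both experiments. Of the Th1 markers, Cd3d, Cd3e, Cd3g, Cd4, Tbx21 and Ifng were present in all 8 libraries. The whole list of 8 also holds Il12rb2 and Cxcr3. Of these 8 markers, 3 rose and 3 fell in the knockdown, and 1 rose and 4 fell with CPX. Ifng was among the falls in both (log2 fold change -1.17 and -2.96). Of all genes tested, 29.3% rose and 26.7% fell in the knockdown, and 19.9% and 24.8% with CPX, at an adjusted p under 0.05.

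Within the scrambled-hairpin libraries, Irf4 had the highest level per kilobase (137 and 156 RPM per kb), followed by Egr2 (49.5 and 58.1), Nr4a3 (40.9 and 40.7), Nab2 (17.4 and 19.3), Nr4a1 (15.6 and 12.8), Nr4a2 (8.61 and 5.35), Egr1 (3.60 and 3.43) and Egr3 (0.688 and 0.442). No neighbours in that order overlapped between the 2 libraries. The order with DMSO began alike, with Irf4 (267 and 306), Egr2 (187 and 141) and Nr4a3 (192 and 113), and ended with Nr4a2 (4.95 and 3.99) and Egr3 (4.92 and 3.33). There, Egr2 overlapped Nr4a3, Nr4a1 overlapped Nab2, and Nr4a2 overlapped Egr3. With the Pcbp1 hairpin the order differed from the scrambled one only in Nr4a1 (31.4 and 20.1) standing above Nab2 (16.9 and 16.1). With CPX it was another order: Nr4a1 came first (427 and 254), Nab2 (290 and 114) and Egr1 (103 and 280) overlapped it, and Irf4 came seventh (43.5 and 65.7).

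**Figure D2:**
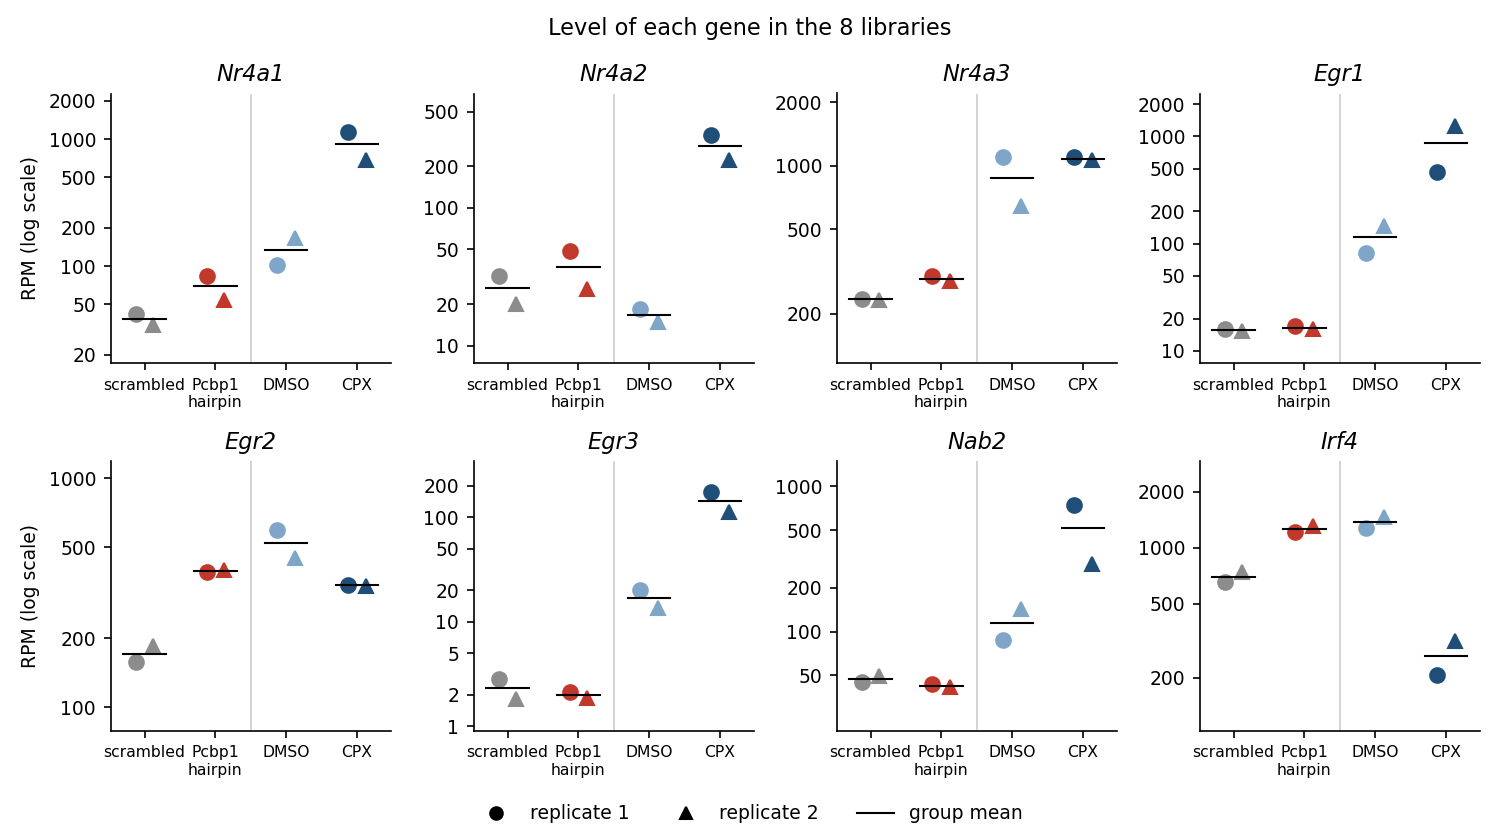
Level of each of the 8 genes in the 8 libraries, in RPM on a log axis whose range differs between panels; circles are replicate 1, triangles replicate 2 and lines group means, and the vertical line parts the 2 experiments. Egr2 and Irf4 are higher with the Pcbp1 hairpin (Irf4 at 1218 and 1303 RPM against 651 and 742), and with CPX Nr4a1, Nr4a2, Egr1, Egr3 and Nab2 are higher and Irf4 is lower.

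In the knockdown experiment Egr2, Irf4, Nr4a1 and Nr4a3 rose with the Pcbp1 hairpin and Nab2 fell, while Egr1, Egr3 and Nr4a2 did not pass the test. Egr2 changed most, by 2.13-fold, and Irf4 and Nr4a1 by 1.68-fold and 1.69-fold. So 5 of the 8 genes were called (adjusted p under 0.05 in edgeR's quasi-likelihood test, Benjamini-Hochberg over 11575 genes), 4 higher and 1 lower. Among all genes tested 56.0% were called, 29.3% higher and 26.7% lower, so the number called among the 8 is close to the background. The split of all calls, 3396 higher and 3086 lower, was 4003 and 2502 with limma on log2(RPM + 0.5) without TMM scaling, and 4202 and 2332 when mt-Rnr2 was also left out of the library totals. The median log2 fold change was 0.31 over the 8 genes and 0.00 over all genes.

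Of the NR4A receptors, Nr4a1, also known as Nur77, was at 41.7 and 34.3 RPM with the scrambled hairpin and at 84.2 and 53.9 RPM with the Pcbp1 hairpin. The groups did not overlap, but the 2 knockdown libraries lay 1.56-fold apart. The log2 fold change was 0.75 (SE 0.19, adjusted p = 0.0127), and it was 0.41 without Pcbp1 hairpin replicate 1 and 1.01 without replicate 2. Nr4a2, known as Nurr1, was at 32.2 and 20.04 RPM and at 48.7 and 25.7 RPM, with groups that overlapped (log2 fold change 0.40, SE 0.30, adjusted p = 0.293). Without Pcbp1 hairpin replicate 1 its log2 fold change was -0.12, and without replicate 2 it was 0.76 (adjusted p = 0.018). In the same test with a replicate block, whose meaning the labels do not give, the adjusted p of Nr4a2 was 0.00453. In both groups replicate 1 had more Nr4a1 and Nr4a2 than replicate 2. It also had more Cd8a, a coreceptor of cytotoxic T cells, at 63.8 RPM (scrambled) and 67.1 RPM (Pcbp1 hairpin) against 6.49 and 6.92 RPM in replicate 2, and the part of such cells in the 2 genes' spread was not tested.

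Nr4a3, the most abundant NR4A transcript in the knockdown experiment, was steady between replicates. It was at 234 and 233 RPM with the scrambled hairpin and at 301 and 285 RPM with the Pcbp1 hairpin. This difference was small but larger than the spread (log2 fold change 0.22, SE 0.06, adjusted p = 0.0170). The call was lost with DESeq2 (adjusted p = 0.0545) and when scrambled replicate 1, scrambled replicate 2 or Pcbp1 hairpin replicate 1 was left out, and with each library's trend on transcript length removed the log2 fold change was -0.05.

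Among the EGR factors, Egr2 was at 158 and 185 RPM with the scrambled hairpin and at 389 and 396 RPM with the Pcbp1 hairpin. The groups lay far apart relative to their spread (log2 fold change 1.09, SE 0.09, adjusted p = 5.34e-05), and Egr2 had the 893rd highest fold change of the 11575 genes. Egr1, the classic immediate early member, was at 16.2 and 15.4 RPM and at 16.9 and 16.01 RPM, and the groups overlapped (log2 fold change -0.04, SE 0.11, adjusted p = 0.768). Egr3 was barely detected, with 26 to 40 reads in a library (2.82 and 1.82 RPM, then 2.13 and 1.89 RPM), a depth at which a difference of this size was not detectable (log2 fold change -0.31, SE 0.30, adjusted p = 0.403).

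Nab2 was at 44.8 and 49.9 RPM with the scrambled hairpin and at 43.6 and 41.6 RPM with the Pcbp1 hairpin. The decrease was small (log2 fold change -0.26, SE 0.09, adjusted p = 0.0438), and the call was lost with DESeq2 (0.106), with limma without TMM scaling (log2 fold change -0.15, adjusted p = 0.177) or also without mt-Rnr2 in the totals (-0.12, 0.297), and when any library other than scrambled replicate 1 was left out. Irf4 was at 651 and 742 RPM with the scrambled hairpin and rose to 1218 and 1303 RPM with the Pcbp1 hairpin. Per kilobase it was the highest of the 8 genes in all 4 libraries, and the groups did not overlap (log2 fold change 0.75, SE 0.09, adjusted p = 3.86e-04). With limma after each library's trend on transcript length was removed, the log2 fold change of Irf4 was smaller, 0.53 (adjusted p = 0.00167). The authors' deposited table gave the same directions for all 8 genes, with Egr2 at a log2 fold change of 1.08 and Irf4 at 0.74. That table called Nr4a3 (adjusted p = 0.0336) and did not call Nab2 (adjusted p = 0.142).

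In the CPX experiment Nr4a2, Egr3, Egr1, Nr4a1 and Nab2 rose, by 16.04-fold, 8.17-fold, 6.91-fold, 6.73-fold and 4.18-fold, and Irf4 fell 5.34-fold. Nr4a3 and Egr2 did not pass the test, so each family had 1 gene that did not rise with the others, in each case the one with the highest level per kilobase of its family in both DMSO libraries. In all, 6 of the 8 genes were called (limma on log2(RPM + 0.5), Benjamini-Hochberg over 11466 genes), 5 higher and 1 lower. Of all genes, 44.7% were called, 19.9% higher and 24.8% lower, and the median log2 fold change was 2.41 over the 8 genes and -0.12 over all genes. Fold changes are on the log2(RPM + 0.5) scale.

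Nr4a1 stood at 102 and 167 RPM in the DMSO libraries and at 1144 and 680 RPM in the CPX libraries. The lower CPX value was above both DMSO values (log2 fold change 2.75, SE 0.36, 95% interval 1.86 to 3.64, adjusted p = 0.00404). Nr4a2, per kilobase the scarcest NR4A transcript with DMSO, went from 18.5 and 14.9 RPM to 338 and 223 RPM. Its log2 fold change of 4.004 (SE 0.29, adjusted p = 0.00241) was the 75th highest of 11466 genes. For Nr4a3 the DMSO libraries gave 1099 and 644 RPM and the CPX libraries 1095 and 1069.6 RPM. The DMSO libraries spanned both CPX values, and the interval of the log2 fold change ran from -0.36 to 1.08 (estimate 0.36, adjusted p = 0.343), so a change of about that size in RNA level was not detectable with these 4 libraries.

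Egr1 went from 82.0 and 147 RPM to 464 and 1253 RPM, with the CPX replicates 2.70-fold apart and both above the DMSO range (log2 fold change 2.79, SE 0.53, adjusted p = 0.0105). It was 3.51 without CPX replicate 1 and 2.07 without CPX replicate 2. Egr3 went from 20.2 and 13.7 RPM to 172 and 113 RPM (log2 fold change 3.03, SE 0.33, adjusted p = 0.00301). Egr2 moved the other way, from 595 and 449 RPM to 343 and 339.6 RPM. Its groups did not overlap, and the log2 fold change of -0.60 (SE 0.21, 95% interval -1.13 to -0.06) missed the threshold after adjustment over all genes (adjusted p = 0.0694). In the same test with a replicate block the adjusted p of Egr2 was 0.0475.

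Nab2 rose from 87.7 and 143 RPM to 748 and 294 RPM, again with CPX replicates far apart (2.54-fold). The groups did not overlap (log2 fold change 2.06, SE 0.49, adjusted p = 0.0204), but the call was lost without DMSO replicate 1 (0.0759) or CPX replicate 1 (0.0692, log2 fold change 1.39), and without CPX replicate 2 the value was 2.74. Of its 2582 exon bases, 864 overlap the opposite-strand gene Gm16229 and 40 overlap Stat6. Whether the counting used strand is not given in the sources used here, so the Nab2 values are uncertain. Gm16229 had at most 0.358 RPM in a DMSO library and 2.397 and 1.04 RPM in the CPX libraries, and Stat6 went the opposite way to Nab2 (log2 fold change -0.64, adjusted p = 0.0371).

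Irf4 gave 1272 and 1459.6 RPM in the DMSO libraries and 207 and 313 RPM in the CPX libraries. Both CPX values lay far below both DMSO values (log2 fold change -2.42, SE 0.26, 95% interval -3.06 to -1.78, adjusted p = 0.00293), the 456th lowest of the 11466 genes. The authors' deposited table gave the same direction for all 8 genes, from a log2 fold change of 3.99 for Nr4a2 to -2.33 for Irf4, and called neither Nr4a3 (adjusted p = 0.561) nor Egr2 (adjusted p = 0.168). In these bulk libraries, fewer cells that make an RNA and less of it per cell cannot be told apart.

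In the knockdown, the dendritic cell markers Xcr1 (log2 fold change -0.68) and Zbtb46 (-0.55) fell, and the summed level of that list went from 16.4 to 17.4 RPM to 11.1 to 13.5 RPM; its part in the changes of the 8 genes was not tested. Markers of other cells moved with CPX too. The summed level of the macrophage markers Cd68 and Emr1 went from 1.12 to 3.02 RPM with DMSO to 17.8 to 20.6 RPM with CPX, and both passed the test. In the authors' deposited means, Csf1r (1.77), Cd14 (4.05) and Lyz2 (0.259), the other macrophage markers of the list, were near 0 beside Cd68 (319). The 4 dendritic cell markers that were measured summed to 2.95 to 3.27 RPM with DMSO and to 22.9 to 26.4 RPM with CPX, with Itgax and Zbtb46 passing the test and Siglech listed at 0. The 2 B cell markers that were measured, Cd79a and Cd79b, also rose and both passed the test. They summed to 0.512 to 0.661 RPM with DMSO and to 2.29 to 2.70 RPM with CPX, with Ms4a1 listed at 0. The CD8 T and NK markers went from 8.09 to 8.24 RPM to 3.74 to 4.12 RPM with Ncr1 listed at 0. The part of such cells in the rise of Nr4a1, Nr4a2, Egr1, Egr3 and Nab2, and that of the change in Th1 markers in the fall of Irf4, was not tested.

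**Figure D3:**
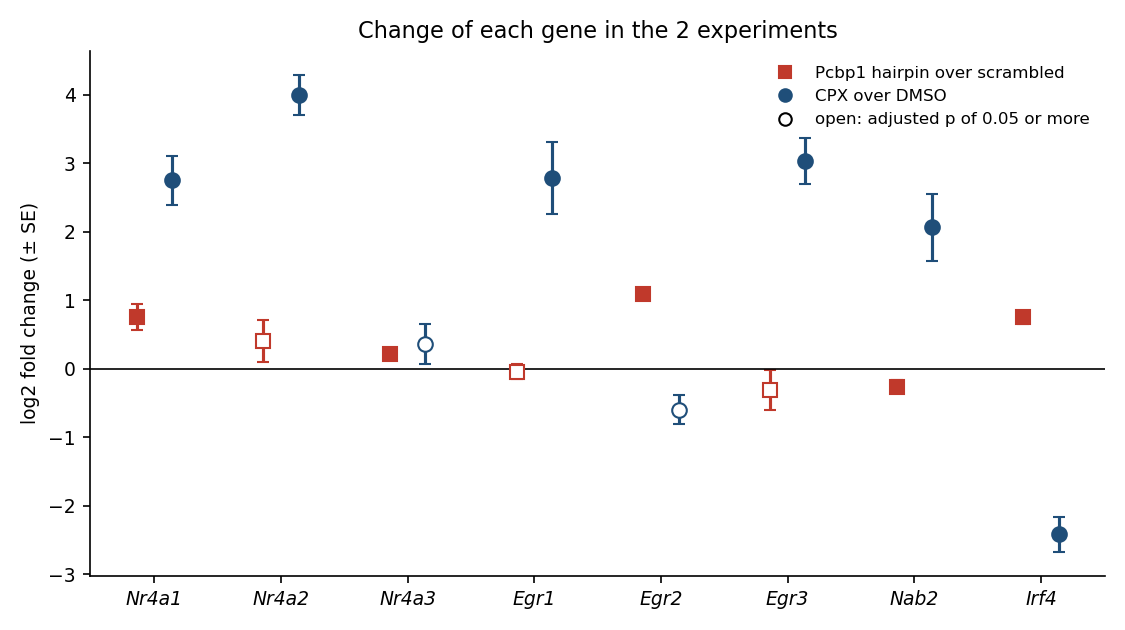
Log2 fold change of each gene, with its SE as a bar, for the Pcbp1 hairpin over the scrambled hairpin (squares) and CPX over DMSO (circles); open symbols have an adjusted p of 0.05 or more. The CPX values run from -2.42 (Irf4) to 4.004 (Nr4a2), and the knockdown values from -0.31 (Egr3) to 1.09 (Egr2).

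Whether a gene moved differently in the 2 experiments was tested directly, as the knockdown effect minus the CPX effect over all 8 libraries, which share no controls. The difference was called for 7 of the 8 genes, against 51.3% of the 10430 genes tested. Irf4 stood highest (log2 difference 3.28, SE 0.29, adjusted p = 1.73e-04): it rose in the knockdown and fell with CPX. Egr2 was also more positive in the knockdown (1.79, SE 0.23, adjusted p = 7.39e-04). The difference was negative, with the CPX effect the more positive, for Nr4a2 (-3.53), Egr3 (-3.18), Egr1 (-2.73), Nab2 (-2.21) and Nr4a1 (-1.93), with adjusted p from 0.00104 to 0.0168. For Nr4a3 it was -0.04 with an interval from -0.79 to 0.72 (adjusted p = 0.935). The median difference over all genes was 0.40, and 0.18 with TMM scaling. Leaving out scrambled replicate 1 (0.0552) or Pcbp1 hairpin replicate 2 (0.0542) ended the Nr4a1 call, and leaving out scrambled replicate 2 (0.0585), Pcbp1 hairpin replicate 2 (0.0548) or DMSO replicate 1 (0.0590) ended that of Nab2. The treatment and the RNA selection cannot be told apart in this contrast.

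Per kilobase, Nr4a3 made up 62.9% and 69.2% of the NR4A transcripts with the scrambled hairpin and 54.3% and 64.8% with the Pcbp1 hairpin. With DMSO it made up 81.7% and 62.9%, and with CPX 27.02% and 37.4%. Nr4a1 then took the larger share, 60.2% and 50.7% with CPX against 16.2% and 34.9% with DMSO, and Nr4a2 went from 2.10% and 2.23% to 12.7% and 11.9%. The 3 receptors together went from 235 and 179 RPM per kb with DMSO to 709 and 500 with CPX, and from 65.1 and 58.9 with the scrambled hairpin to 97.1 and 76.8 with the Pcbp1 hairpin.

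The EGR transcripts were mostly Egr2 in 6 of the libraries: 92.0% and 93.8% with the scrambled hairpin, 96.6% and 96.9% with the Pcbp1 hairpin, and 88.9% and 79.6% with DMSO. With CPX, Egr2 was 42.5% and 25.8%, Egr1 40.9% and 67.6%, and Egr3 16.6% and 6.63%. The 2 CPX libraries thus had different leading genes, Egr2 by a narrow margin in replicate 1 and Egr1 in replicate 2. The EGR sum was 210 and 177 RPM per kb with DMSO and 253 and 414 with CPX, against 53.8 and 62.0 and then 126 and 128 in the knockdown experiment.

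**Figure D4:**
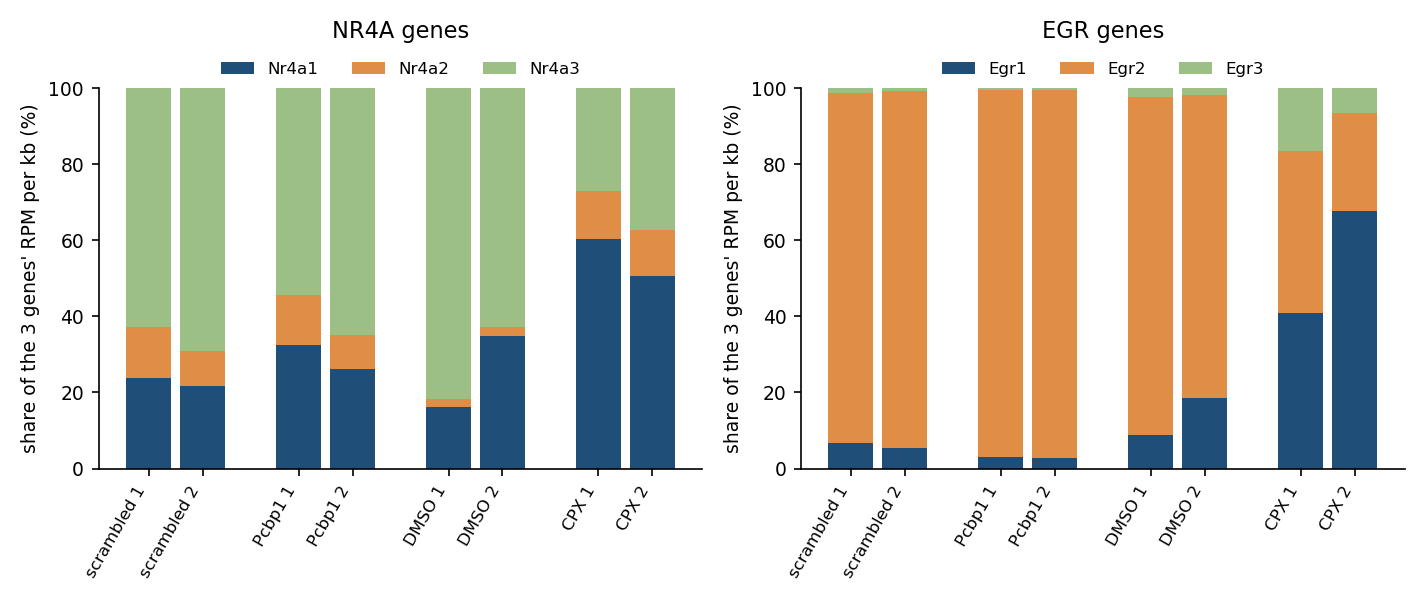
Share of each gene, in percent of the 3 genes' summed RPM per kb, for the NR4A genes (left) and the EGR genes (right), with 1 stacked bar per library. With CPX, Nr4a3 is at 27.02% and 37.4% and Egr2 at 42.5% and 25.8%, below their shares in the other 6 libraries.

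The partners of these factors were read from fixed lists of genes. Among other EGR, NAB and RXR genes, Nab1, the second NAB corepressor, fell with the Pcbp1 hairpin (log2 fold change -0.51, adjusted p = 8.10e-04). It rose with CPX (1.18, adjusted p = 0.0435), with CPX libraries at 169 and 90.0 RPM. Nab2 had the same direction in both, but its calls were lost in the alternatives given above. The RXR receptors, with which NR4A1 and NR4A2 can pair, were Rxrb (-0.45) and Rxra (0.39) in the knockdown, and neither was called with CPX. Of 3 genes tested in the knockdown 1 rose and 2 fell, and of 4 with CPX 1 rose. The shares of all genes called were 29.3% higher and 26.7% lower in the knockdown, and 19.9% and 24.8% with CPX.

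Batf, the AP-1 factor that binds DNA with IRF4, fell in both experiments. It was at 75.4 and 65.1 RPM with the scrambled hairpin and 36.9 and 36.2 RPM with the Pcbp1 hairpin (log2 fold change -1.05, adjusted p = 7.82e-05), and it fell from 139 and 142 RPM to 13.9 and 18.7 RPM with CPX (-3.08, adjusted p = 0.00241). The ratio of Irf4 to Batf per kilobase was therefore 1.73 and 2.28 with the scrambled hairpin and 6.62 and 7.21 with the Pcbp1 hairpin, and it was 1.84 and 2.06 with DMSO and 2.99 and 3.35 with CPX. Of the 8 IRF4 partners tested, 3 rose and 2 fell in the knockdown (median -0.05), and 2 rose and 2 fell with CPX (median -0.19). Over all genes, 29.3% were called higher and 26.7% lower in the knockdown, and 19.9% and 24.8% with CPX. Ikzf1, which encodes Ikaros, changed with Irf4 in both, by 0.54 and -1.57, and Ikzf3 rose in the knockdown (0.59). Jun rose with CPX (2.45), as did Prdm1, which encodes Blimp-1 (3.46; named after its value was seen). Of the other 8 IRF genes, Irf2 rose (1.74) and Irf7 fell (-0.92) in the knockdown, and Irf1 rose with CPX (1.85).

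The route that induces EGR genes, from RAS through ERK to SRF, had 10 of 17 tested genes higher and 0 lower in the knockdown, where 29.3% and 26.7% of all genes were called in these directions, with a median of 0.52. The transcription factors at its end led it: Elk3 (1.56), Elk4 (1.37) and Srf, which went from 21.9 and 24.5 RPM to 59.99 and 61.5 RPM (1.28). With CPX, 1 gene of the route rose and 3 fell (median -0.30), where 19.9% and 24.8% of all genes were called in these directions. Elk4 (1.45) and Mkl2 (-1.47) were among them. The MEF2 route, which acts on NR4A genes through MEF2 factors and the class II histone deacetylases that repress them, had 5 of 7 genes higher and 0 lower in the knockdown (median 0.64). They were Mef2d (1.34), the deacetylase Hdac7 (1.29), Cabin1 (0.64), and, named after their values were seen, Mef2a (0.80) and Hdac4 (0.62). With CPX, 2 of these 7 genes rose and 2 fell (median 0.01), where 19.9% and 24.8% of all genes were called in these directions. Hdac7, a repressor of Nr4a1 in thymocytes, fell from 251 and 380 RPM to 37.8 and 37.7 RPM (-3.01), and Cabin1 fell (-1.14). Hdac5 rose (3.30), as did Mef2a, from 66.9 and 69.7 RPM to 199 and 111 RPM (1.12, named after its value was seen).

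Genes linked to the restraining action of EGR2 and EGR3 did not move one way. The shares of all genes called, to be read beside these counts and those of the next list, were 29.3% higher and 26.7% lower in the knockdown and 19.9% and 24.8% with CPX. In the knockdown 3 of 13 rose and 5 fell (median -0.21). Dgka, a diacylglycerol kinase that damps RAS signalling, fell (-1.51), Fasl fell (-0.81) and Ndrg1 rose (0.77). With CPX 4 of 14 rose and 2 fell (median 0.05), led by Crtam (-3.57) and the cell cycle inhibitors Cdkn1b (2.41) and Cdkn1a (1.98). Of the genes linked to NR4A factors in exhausted and regulatory T cells, 2 of 6 rose and 3 fell in the knockdown, with Ctla4 (-1.25), Ikzf2 (-0.68) and Tox (1.33) foremost. Tox was barely detected, with 10 and 10 reads with the scrambled hairpin and 23 and 34 reads with the Pcbp1 hairpin. With CPX 1 of 7 rose and 2 fell: the receptors Havcr2 (-1.71) and Pdcd1 (-0.76) fell, and Tox2 rose (1.90).

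Other primary response genes, which share with the EGR and NR4A genes their fast induction, split in both experiments, and the same shares over all genes apply. In the knockdown 11 of 30 rose and 7 fell (median 0.12), and the smallest p belonged to Plk3 (1.36), Rgs2 (1.203) and the phosphatase Dusp4 (0.98). With CPX 14 rose and 8 fell (median 0.81). Fosb went from 7.43 and 7.62 RPM to 448 and 470 RPM (5.84), Klf4 rose (4.48), and Myc fell from 1552 and 1263 RPM to 56.9 and 45.01 RPM (-4.78). Of 11 activation surface markers, 1 rose and 7 fell with CPX (median -1.19), among them Cd69 (-2.76), Tnfrsf4 (-2.09) and Cd5 (-2.25). In the knockdown 4 rose and 5 fell, with Slc7a5 higher (1.12) and Cd69 (-1.47) and Icos (-0.53) lower.

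**Figure D5:**
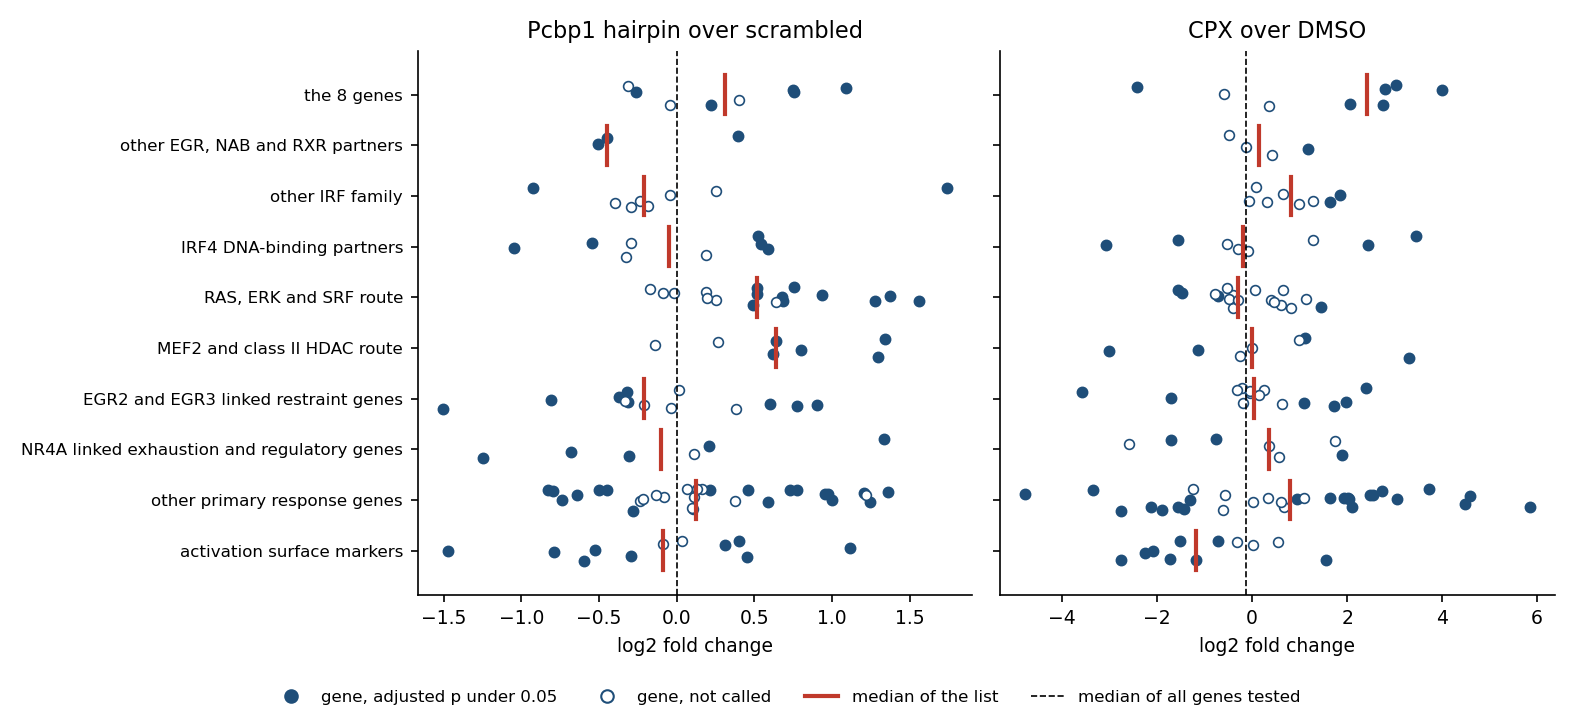
Log2 fold change (x axis) of each tested gene of the 8 genes and of 9 lists (y axis) in the knockdown (left) and with CPX (right); filled points have an adjusted p under 0.05, red lines are list medians and the dashed line is the median of all genes tested (0.00 and -0.12). The 8 genes have a median of 0.31 in the knockdown and 2.41 with CPX, and the RAS, ERK and SRF route has medians of 0.52 and -0.30.

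The genes whose pattern over the 8 libraries was nearest to each of the 8 were found among 8112 genes by the root mean square difference of log2(RPM + 0.5), centred within each experiment. They were Plec for Nr4a1 (0.153), Skil for Nr4a2 (0.282), Diap2 for Nr4a3 (0.0979), 2810474O19Rik for Egr1 (0.214), Ints8 for Egr2 (0.0662), Chordc1 for Egr3 (0.204), Tmem194b for Nab2 (0.142) and 2310008H09Rik for Irf4 (0.102). A small value is a short distance in log2 units, so Egr2 and Nr4a3 had the closest neighbours and Nr4a2 the farthest. Within the 8 genes the closest pairs crossed the families: Nr4a2 with Egr3 (0.456), Nr4a3 with Egr2 (0.472) and Nr4a1 with Nab2 (0.482). Nr4a2 and Irf4 were farthest apart (2.32).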

How the data were processed

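Mouse Th1 RNA was sequenced in 8 libraries, 2 in each of 4 groups. Per the submitters' processing notes, cutadapt, STAR, HTSeq and DESeq were used with build mm9, and neither versions nor an annotation are named. The deposited per-library table holds raw counts for the knockdown experiment and, for the CPX experiment, a deposited score (counts multiplied by 1 common factor and rounded), although it is named RPM. The authors' result tables hold, per the file headers, a mean signal (counts divided by size factors), log2 fold changes with their errors, a test score, and p-values before and after adjustment.

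Names in the per-library table are displaced after a constant line, so each line was matched to the gene with its mean signal in both of the authors' tables. Of its 33899 lines, 14455 with values of at least 10 matched 1 gene, 350 matched more and were left out. Of the 8 genes, 5 stood under another gene's name.

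RPM is 1e+06 times a value over its library total, the constant line left out. A gene was tested where 2 or more of the 4 libraries of an experiment reached 1 RPM, as all 8 did. The knockdown was tested with edgeR 4.0.16 (quasi-likelihood, TMM scaling), with SE worked back from its F statistic. CPX and the difference were tested with limma 3.58.1 (trend) on log2(RPM + 0.5), in R 4.3.3, without a replicate term. Called means Benjamini-Hochberg adjusted p under 0.05. The code was tested on simulated data. Alternatives included DESeq2 1.42.0, other scalings, filters and pseudocounts, and leaving out each library. Exon lengths came from GENCODE M21 (GRCm38), and promoters from RefSeq.

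The 8 genes and all lists were chosen with earlier results of these data known. Named genes are the 8, Pcbp1, up to 3 called genes of each list with the smallest p, and the nearest gene by pattern, with exceptions marked. Some genes that this rule selects are not reported here.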

Additional observations from a re-analysis of the deposited data

How the results depend on the processing

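In the knockdown, 6482 of all 11575 genes tested were called, and 5095 with DESeq2. Of the 8 genes, 5 were called, and 3 with DESeq2. Leaving out 1 library at a time gave 3 to 5 (a lone library was assumed to vary like the others). With CPX, leaving out 1 library gave 2108 to 5809 genes called in all, against 5124, and 5 or 6 of the 8 genes. The count was 2108 without DMSO replicate 1 and 2354 without DMSO replicate 2. The cause was not tested.

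Directions of genes that were not called, or of Nr4a3, turned in these cases. The knockdown log2 fold change of Nr4a3 was -0.054 with the trend on transcript length removed. That of Egr1 was 0.063 with limma without TMM scaling and 0.10 with limma on library totals that leave out mt-Rnr2. Leaving out 1 library gave -0.12 to 0.78 for Nr4a2 and -0.59 to 0.035 for Egr3 in the knockdown, -0.022 to 0.75 for Nr4a3 with CPX, and -0.42 to 0.35 for Nr4a3 in the difference. The split of knockdown calls, 3396 higher and 3086 lower, was 4003 and 2502 with limma without TMM scaling (median of all genes 0.10) and 4202 and 2332 with limma on totals without mt-Rnr2 (median 0.13), while TMM scaling moved the CPX median from -0.12 to 0.00. Egr3 was not tested in the knockdown or the difference with a filter of 5 RPM.

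The labels do not say what a replicate number marks. Same-numbered libraries deviated together at a correlation over genes of 0.289 in the knockdown and 0.101 with CPX. Some genes split by number in both groups. In the CPX experiment Ctla4 was at 20.2 (DMSO) and 34.2 RPM (CPX) in replicate 1. In replicate 2 it was at 288 (DMSO) and 285 RPM (CPX). With a replicate block, 6 of the 8 genes were called in the knockdown (Nr4a2 added, adjusted p = 0.00453), 7 with CPX (Egr2 added, adjusted p = 0.0475) and 7 in the difference. Over all genes the block called 7348 of 11575 in the knockdown, 5651 of 11466 with CPX and 5362 of 10430 in the difference. Without it the numbers were 6482, 5124 and 5346.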
